A study of Mus musculus with 9 samples.

Results

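The comparison described here is hypoxia with the thyroid hormone T3 (triiodothyronine) against hypoxia alone in mouse cortical neurons in primary culture, 6 of the 9 libraries of the series. Cultures were from wild-type C57BL/6 mice (genotype "Wt") and were used after 6 days in Neurobasal medium with B27, a supplement whose usual formula itself includes T3, so the groups differ in added T3. The 3 hypoxia libraries (columns numbered 7, 8 and 9, called hypoxia 7, 8 and 9 below) came from cells held at 0.2% oxygen with 5% CO2 for 7 h. The 3 libraries of hypoxia with T3 (numbered 11, 12 and 13, called T3 11, 12 and 13) came from the same exposure with 10 nM T3 in the medium. No group with T3 in normal oxygen is analysed here, so a response to T3 and a response to T3 under hypoxia cannot be told apart. The 3 normoxia libraries entered the fit for their spread, and their levels are given beside those of the genes that matter. The labels number the samples within each group but do not say whether they came from separate animals or dishes, so p-values measure the spread between these samples, which may be technical.

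T3 acts mainly through the nuclear receptors encoded by Thra and Thrb, which sit on DNA with a retinoid X receptor partner, recruit corepressors such as NCoR1 without hormone, and exchange them for coactivators when hormone binds. In cortical neurons, genes such as Hr, Klf9, Cyp26b1, Nefm and Dio3 are well known to rise with T3, and they serve below as checks of the labels. Hypoxia itself raises the targets of the hypoxia-inducible factors and stress-responsive transcription, so the comparison asks what added hormone changed in cells already in that state.

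Values are TMM-normalised CPM (read counts per unit of library depth, scaled by the trimmed mean of M-values). In the 6 libraries compared, whole reads recovered from the table came to 17182338 in hypoxia 7 and 23294636 to 29583588 in the others. In 35 of 24054 rows, 142 values were not whole reads of their library, 6 of them in normoxia, 65 in hypoxia and 71 with T3. These rows include many histone-modifying enzymes and also Hr, Klf9, Cyp26b1, Vegfa, Gadd45b, Gadd45g and Junb, and their values are given as deposited, with counts also given without them. Markers of neurons summed to 7528 to 8071 CPM in hypoxia and 7545 to 7731 CPM with T3. Of 13 microglial markers 12 stayed below 1 CPM in every library, as did 11 of 14 vascular and fibroblast markers. Astrocyte markers summed to 475, 690 and 968 CPM in hypoxia 7, 8 and 9 and to 725, 952 and 633 CPM in T3 11, 12 and 13, with Gfap, the astrocyte filament gene, at 0.396, 1.52 and 4.63 CPM and 1.81, 4.26 and 1.01 CPM. The astrocyte sums of the groups overlap, hypoxia 9 had the highest of all 6, and their part in the results below was not tested. None of 15 astrocyte, 10 oligodendrocyte-lineage or 24 progenitor and cell cycle genes tested passed limma's test with all libraries, while 1, 0 and 1 of them had an unadjusted p under 0.05; edgeR called 0, 0 and 0 of them and DESeq2 1, 0 and 0. Without hypoxia 9 the median log2 change of these 3 lists went from 0.13 to 0.46, from 0.02 to 0.37 and from 0.05 to 0.25, and 1 astrocyte gene rose, the glutamine synthetase gene Glul, at 145, 142 and 199 CPM in hypoxia and 233, 227 and 169 CPM with T3 (0.37, adjusted p = 0.11, and 0.53, adjusted p = 0.029 without hypoxia 9). The precursor of ribosomal RNA, Rn45s, took 1.04% to 1.33% of the hypoxia columns, 2.65% of T3 11, 1.44% of T3 12 and 1.04% of T3 13.

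The library hypoxia 9 stood apart from hypoxia 7 and 8 in the direction of T3. On the first principal component (67.8% of the variance), hypoxia 7, 8 and 9 lay at 2.92, 2.52 and 14.0, and T3 11, 12 and 13 at 32.0, 28.7 and 17.6. Normoxia 1, 2 and 3 lay at -38.2, -31.2 and -28.4, so this component also runs from normoxia to hypoxia and is not particular to T3. Among the 936 genes with whole-read values that were called without hypoxia 9, that library lay at a median position of 0.425 on a scale where 0 is the mean of hypoxia 7 and 8 and 1 is the mean with T3 (quartiles 0.254 and 0.578), and for 36.1% of them it was nearer to T3. On the same scale T3 13 lay at 0.767, nearer to hypoxia than T3 11 (1.21) and T3 12 (1.02), and normoxia 1, 2 and 3 at -0.76, -0.70 and -0.70. Results are therefore given with and without hypoxia 9.

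**Figure D1:**
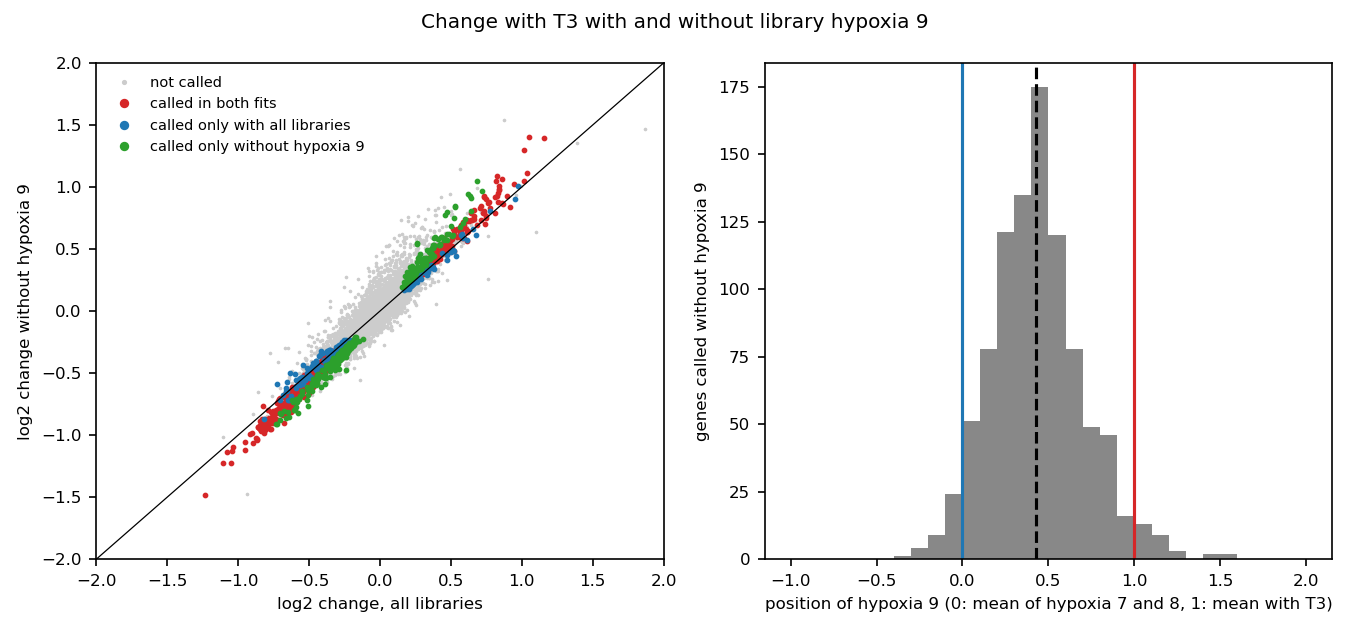
Left, log2 change with T3 for each tested gene with all libraries (x axis) and without hypoxia 9 (y axis), coloured by the fit in which it was called, with a line of equality. Right, number of genes by the position of hypoxia 9 between the mean of hypoxia 7 and 8 (blue line) and the mean with T3 (red line), with values beyond the axis drawn at its ends and the median, 0.425, as a dashed line.

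With all libraries, 838 of 12923 genes tested passed an adjusted p of 0.05 (6.48% of genes), 353 higher with T3 (2.73%) and 485 lower (3.75%). Scaling the columns to equal sums gave 284 higher and 697 lower. Without hypoxia 9 the count was 957 (7.41%), of which 399 were higher (3.09%) and 558 lower (4.32%). The 652 genes called in both fits made up 5.05% of those tested, 267 higher and 385 lower, and no gene was called in opposite directions. Changes were mostly small: the median log2 change was 0.32 among the higher genes and -0.48 among the lower ones, and 17 genes reached a 2-fold change (29 without hypoxia 9). The 3 values with T3 lay wholly above the 3 of hypoxia for 15.8% of genes and wholly below for 15.8%, so lack of overlap alone marked 4092 genes.

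The calls depended on single libraries. Leaving out hypoxia 7, hypoxia 8, T3 11 or T3 12 left 88, 43, 46 and 31 genes called (these are the 4 strictest fits, given in that order below). Leaving out T3 13 gave 1817, and leaving out normoxia 2 gave 455. All 838 genes kept the sign of their change whichever library was left out. For 834 of them the hypoxia and T3 values do not overlap, so leaving out 1 library could not turn their sign. A set of 26 genes kept its call in all 9 of those fits, and 17 of the 26 had whole-read values in every library. For every gene outside these 26 that is said below to rise or fall, leaving out at least 1 library lost the call. Where a pair of log2 changes follows a gene in brackets, the first is with all libraries and the second without hypoxia 9. Counts of list members that rose or fell are limma's calls. Each such count is to be read beside the shares of all genes tested. These were 2.73% higher and 3.75% lower with all libraries, and 3.09% and 4.32% without hypoxia 9.

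The 17 genes were 10 higher and 7 lower with T3, and edgeR's quasi-likelihood test and DESeq2 on recovered reads called all 17 as well. Those higher were the transcription factor gene Jun, the early response gene Ier2, the ARF-like GTPase gene Arl4d, the antiproliferative gene Tob1, the neurofilament genes Nefm and Nefl, the kinase gene Pak1 of actin remodelling, the glycolytic regulator Pfkfb3, the triglyceride synthesis enzyme Dgat2, and Fam57b. Those lower were Rorb, a transcription factor of layer 4 neurons, Sema3a, a secreted repellent of growing axons, Flrt2, an adhesion molecule that binds Unc5 receptors, Elmo1, a partner of DOCK proteins in Rac activation, Mctp1, a calcium-binding membrane protein, and Ssbp2 and Plekhh1.

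Jun stood at 173, 147 and 179.8 CPM in hypoxia 7, 8 and 9 and at 306, 273 and 277 CPM in T3 11, 12 and 13 (log2 change 0.78, SE 0.08, adjusted p = 0.0020, and without hypoxia 9 0.83, SE 0.09, adjusted p = 0.0021). Tob1 stood at 32.2, 28.1 and 28.6 CPM in hypoxia and 57.9, 57.8 and 43.7 CPM with T3 (log2 change 0.81, SE 0.11, adjusted p = 0.0070, and 0.79 without hypoxia 9). The groups do not overlap for either gene. Tob1 had a log2 change of -0.05 between normoxia and hypoxia (adjusted p = 0.73), with 28.8, 30.4 and 33.3 CPM in the normoxia libraries, and the T3 libraries lay above both other groups. Plekhh1 had the same form downward, with 3.33, 3.59 and 3.29 CPM in normoxia, 3.05, 3.03 and 3.61 CPM in hypoxia and 1.31, 1.53 and 1.31 CPM with T3 (log2 change -0.83, SE 0.12, adjusted p = 0.0093, and -0.76 without hypoxia 9). Both contrasts use the same hypoxia libraries.

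Pak1 stood at 277, 261 and 314 CPM in hypoxia and 410.2, 389 and 396 CPM with T3 (log2 change 0.49, SE 0.07, adjusted p = 0.0094, and 0.57 without hypoxia 9). Hypoxia 9 was the highest of its group and still below all 3 T3 libraries. Dgat2, which makes triglyceride for lipid droplets, stood at 59.2, 58.8 and 61.5 and 87.1, 83.04 and 86.4 CPM (log2 change 0.51, SE 0.06, adjusted p = 0.0047), and hypoxia 9 lay with the rest of its group. The log2 change of Fam57b was 0.41 with all libraries and 0.45 without hypoxia 9.

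Among the genes that fell, Rorb stood at 68.4, 74.4 and 74.7 CPM in normoxia, 34.1, 36.1 and 29.8 CPM in hypoxia and 14.9, 17.9 and 18.8 CPM with T3 (log2 change -0.91, SE 0.10, adjusted p = 0.0018, and without hypoxia 9 -0.99, SE 0.10, adjusted p = 0.0014). Its 3 groups do not overlap, and the largest adjusted p on leaving out a library was 0.015. Mctp1 went from 15.8, 16.8 and 14.7 CPM to 8.17, 9.22 and 9.13 CPM (log2 change -0.77, SE 0.08, adjusted p = 0.0020, and -0.82 without hypoxia 9), and Elmo1 from 120.5, 121 and 108 CPM to 73.5, 75.2 and 82.3 CPM (log2 change -0.59, SE 0.06, adjusted p = 0.0018, and -0.64 without hypoxia 9). The log2 change of Ssbp2 was -0.45 with all libraries and -0.51 without hypoxia 9. In bulk RNA, fewer cells of a kind and less RNA per cell cannot be told apart for any of these.

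**Figure D2:**
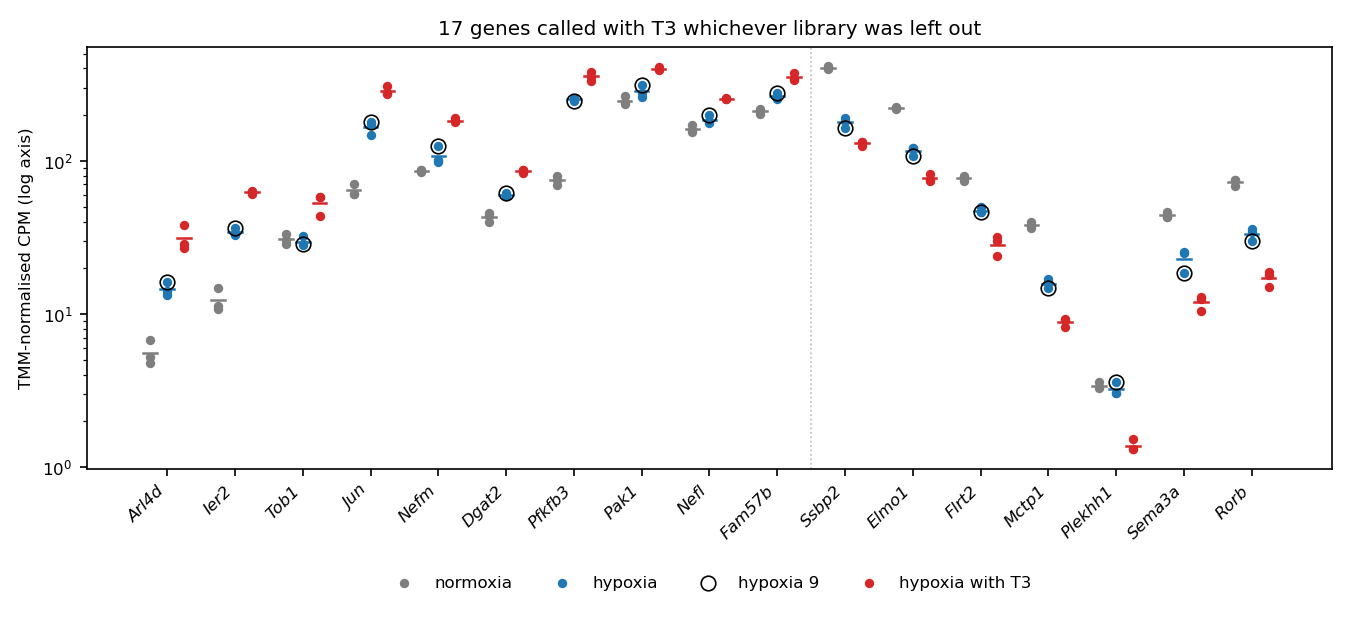
TMM-normalised CPM (log axis) of the 17 genes with whole-read values that kept their call whichever library was left out, with each library as a point, group means as bars and hypoxia 9 ringed. Genes left of the dotted line rose with T3 and those to its right fell; in each of them the 3 T3 points lie outside the 3 hypoxia points.

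The classical T3 genes Hr, Klf9, Cyp26b1 and Nefm rose. Hr, which encodes the corepressor Hairless and is a direct target of the receptor, stood as deposited at 4.35, 4.55 and 5.19 CPM in hypoxia and 34.2, 34.2 and 30.1 CPM with T3 (log2 change 2.57, SE 0.11, adjusted p = 9.2e-07, and without hypoxia 9 2.63, SE 0.12, adjusted p = 8.1e-06). Klf9, a zinc finger factor of neuronal maturation, stood at 20.4, 19.8 and 24.8 and 47.99, 48.9 and 57.7 CPM (log2 change 1.21, SE 0.13, adjusted p = 0.0018, and 1.31 without hypoxia 9). Cyp26b1, which degrades retinoic acid, stood at 29.05, 20.04 and 30.3 and 76.3, 65.3 and 76.7 CPM (log2 change 1.44, SE 0.13, adjusted p = 0.00090, and 1.55 without hypoxia 9). For these 3 genes the value in hypoxia 9 is not a whole number of reads, so the changes without hypoxia 9 rest on whole reads alone. Of the round amounts tried, adding 10 CPM for Hr or 20 CPM for Klf9 and Cyp26b1 makes that value whole. How these values arose was not tested, and they do not show where hypoxia 9 lay at these genes. Such matches were found for many other off-step values and are not specific, since Bad in T3 11 became whole with -10, 10 or 30 CPM. In T3 13, adding -20 CPM made Gadd45b and Gadd45g whole, at 8.90 and 17.7 CPM. Nefm, the medium neurofilament chain, has whole reads throughout, at 97.9, 100.4 and 124 CPM in hypoxia and 181, 189 and 178 CPM with T3 (log2 change 0.77, SE 0.08, adjusted p = 0.0018, and without hypoxia 9 0.88, SE 0.05, adjusted p = 8.3e-05). Dio3, the deiodinase that inactivates T3, was too low to test, at 0.0565, 0.103 and 0.162 CPM in hypoxia and 0.568, 0.333 and 0.425 CPM with T3, and those ranges do not overlap.

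Of 25 tested genes of a list of T3-induced neuronal genes, 8 rose and none fell with all libraries by limma (32.0%, against 2.73% of all genes), and 11 rose and 1 fell without hypoxia 9. On whole reads edgeR called 4 higher and none lower, and DESeq2 6 higher and 3 lower, and 16 of the 25 had an unadjusted p under 0.05 with limma. The list's median log2 change was 0.38, and 0.47 without hypoxia 9, against -0.01 over all genes. Without the 3 rows off the read step, 5 of 22 rose. In the 4 strictest fits, Nefm was the only member with whole reads that was called, beside Hr, Klf9 and Cyp26b1. Besides Nefm the higher members included Flywch2 (0.84 and 0.98), the early gene Ier5 (0.71 and 0.84), the striatal G protein gene Rasd2 (0.46 and 0.51) and the morphogen gene Shh (0.83 and 1.09). Dbp, a circadian factor that T3 also induces, missed the threshold with all libraries (0.57, adjusted p = 0.052) and passed it without hypoxia 9 (0.68, adjusted p = 0.040). Nrgn, the calmodulin-binding neurogranin gene, did not pass in either fit (0.18, adjusted p = 0.25, and 0.22, adjusted p = 0.21).

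Sema7a, a membrane-bound semaphorin of axon growth on the same list, was called without hypoxia 9 and not with it, and was chosen after its values were seen. It stood at 137, 148 and 144 CPM in normoxia, 86.8, 81.3 and 154 CPM in hypoxia 7, 8 and 9, and 152, 169 and 160.2 CPM with T3. Hypoxia 9 lay among the T3 libraries, far above hypoxia 7 and 8. The change was 0.64 with all libraries (adjusted p = 0.056) and 0.93 without hypoxia 9 (adjusted p = 0.00021). Shh, at 2.03, 1.34 and 3.57 CPM in hypoxia and 4.23, 5.12 and 4.68 CPM with T3, had hypoxia 9 above the rest of its group too. The mean over the list, relative to hypoxia 7 and 8, was 0.29 in hypoxia 9 and 0.47 to 0.51 in T3 11, 12 and 13, values off the read step included.

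Thrb, the receptor gene, fell. It stood at 27.4, 27.9 and 28.7 CPM in normoxia, 9.95, 13.5 and 9.74 CPM in hypoxia and 4.41, 5.66 and 6.21 CPM with T3 (log2 change -0.91, SE 0.14, adjusted p = 0.011, and without hypoxia 9 -0.98, SE 0.15, adjusted p = 0.0095), and without T3 12 the adjusted p was 0.052. Its paralog Thra did not pass, at 1073, 1110.2 and 1027 CPM in hypoxia and 1179.5, 1133 and 1101 CPM with T3 (0.09, adjusted p = 0.35). Of the retinoid X receptor genes none passed, the changes of Rxrb being 0.14 and 0.19. Among 7 genes of hormone transport and metabolism, Slc3a2, the heavy chain of an amino acid carrier that also moves thyroid hormone, rose (0.29 and 0.33). A single call in a list of this size lies near the 2.73% of all genes, and none was called in the 4 strictest fits. Of 19 receptor cofactor genes, 4 fell and 1 rose in both fits. Those lower included the corepressor complex genes Tbl1xr1 (-0.61 and -0.68) and Tbl1x (-0.41 and -0.44), whose values are whole reads, and 3 of the 17 members with whole reads fell while none rose. In the 4 strictest fits none of the cofactor genes was called.

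Early response genes, switched on within minutes by activity and stress, were among those that rose. In the AP-1 family, 5 of 10 tested genes rose and 1 fell (4 and 1 without hypoxia 9), with a median log2 change of 0.66, and 0.64 without hypoxia 9. Across the 4 strictest fits, 3, 2, 2 and 2 were called higher, among them Jun and, off the read step, Junb. Besides Jun, the stress factor gene Atf3 (0.81 and 0.92) and the small Maf gene Maff (0.75 and 0.75) rose. Of the 9 members with whole reads, 4 rose and 1 fell. Fos stood at 82.9, 84.5 and 90.9 CPM in hypoxia and 173, 179.8 and 156 CPM with T3, groups that do not overlap, and its change was 0.97 (adjusted p = 0.040) but missed the threshold without hypoxia 9 (1.01, adjusted p = 0.054). Junb, with 2 values off the read step, stood at 32.7, 36.4 and 34.1 and 75.4, 81.9 and 72.2 CPM as deposited.

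Of 23 genes around the EGR and NR4A factors, 7 rose and 1 fell (6 and 1 without hypoxia 9). Ier2 stood at 33.7, 33.00 and 36.6 CPM in hypoxia and 63.7, 62.1 and 60.6 CPM with T3 (log2 change 0.83, SE 0.10, adjusted p = 0.0050, and 0.88 without hypoxia 9), the libraries of each group lying close together. Klf4 (0.87 and 0.87) and Ier5l (0.90 and 0.92) rose, and Klf6, a Krüppel-like factor of axon growth, fell (-0.48 and -0.55). Egr1 was spread in hypoxia, at 66.9, 145 and 104 CPM, against 163, 173 and 185 CPM with T3, and its call (0.78, adjusted p = 0.047) was lost without hypoxia 9 (adjusted p = 0.064). The activity-dependent factor gene Npas4 (0.49 and 0.57) and the orphan receptor gene Nr4a1 (0.38 and 0.24) did not pass. With the 4 strictest fits, 3, 4, 1 and 2 genes of this list were higher.

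Of 22 neuronal activity effectors, 9 rose and none fell (11 and none without hypoxia 9). Arc, whose protein trims AMPA receptors from synapses, stood at 2.16, 2.05 and 2.79 CPM in normoxia, 9.89, 13.2 and 11.7 CPM in hypoxia and 22.98, 22.4 and 19.9 CPM with T3 (log2 change 0.86, SE 0.13, adjusted p = 0.00998, and 0.87 without hypoxia 9). Arl4d stood at 13.4, 14.04 and 16.1 and 38.05, 28.4 and 26.9 CPM (log2 change 1.04, SE 0.15, adjusted p = 0.0093, and 1.11 without hypoxia 9), and Sertad1, a transcriptional co-regulator of the cell cycle, at 7.74, 6.41 and 7.55 and 19.1, 16.3 and 12.2 CPM (log2 change 1.02, SE 0.16, adjusted p = 0.013). The matricellular gene Cyr61 (0.92 and 0.84) and the kinase gene Plk2 (0.42 and 0.44) also rose. Homer1, a postsynaptic scaffold gene, did not pass (-0.15 and -0.16). In the 4 strictest fits, 5, 3, 1 and 1 members with whole reads were higher, Arl4d each time. For this group hypoxia 9 lay with hypoxia 7 and 8, at a median position of 0.09 over the 11 members called without it. Over all 957 genes called without it the median was 0.42, and both medians include genes off the read step. Among the 19 members with whole reads 7 rose (9 without hypoxia 9). Of 18 MAPK feedback genes 2 rose (11.1%, against 2.73% of all genes), the EGF receptor inhibitor Errfi1 (0.67 and 0.74) and the phosphatase gene Dusp1 (0.61 and 0.56). In the 4 strictest fits, 2, 1, 0 and 0 of the 18 were higher.

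**Figure D3:**
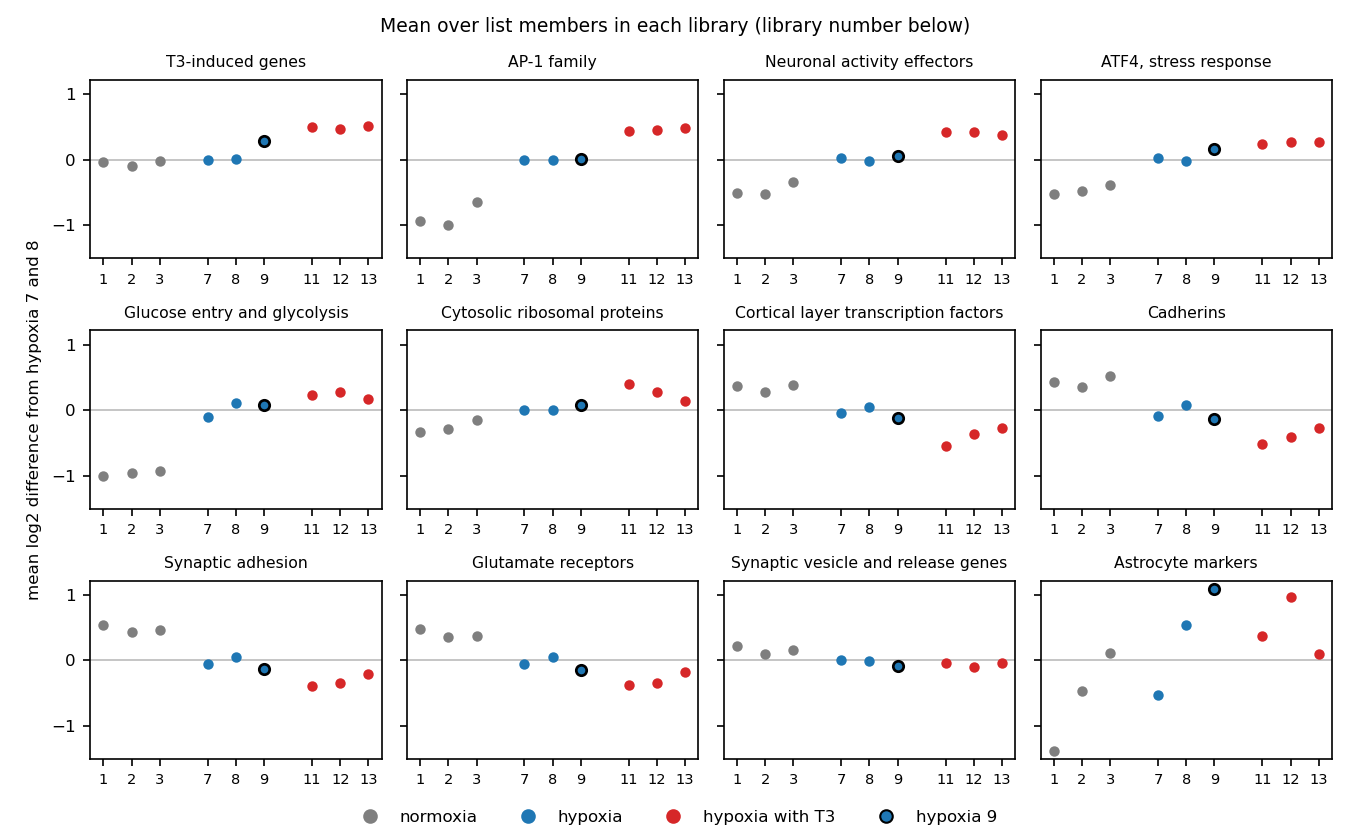
Mean log2 difference from the mean of hypoxia 7 and 8, over the tested members of 12 gene lists, for each library (number on the x axis, hypoxia 9 ringed). The AP-1 and activity lists lie near 0 in hypoxia 9 and between 0.38 and 0.49 with T3, while the astrocyte markers spread from -1.38 to 1.09 without separating the groups.

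Genes already raised by hypoxia were in part higher still with T3. Of 26 secreted and stress targets of the hypoxia-inducible factors, 6 rose and none fell (7 and none without hypoxia 9). A positive change was seen in 25 of the 26, against 6275 of all 12923 genes tested. P4ha1, a collagen prolyl hydroxylase subunit, stood at 20.9, 21.6 and 22.5 CPM in normoxia, 96.2, 92.2 and 93.3 CPM in hypoxia and 117, 127 and 117 CPM with T3 (log2 change 0.35, SE 0.06, adjusted p = 0.013, and 0.35 without hypoxia 9). The secreted glycoprotein gene Stc2 stood at 25.6, 29.4 and 34.96 and 46.8, 55.4 and 51.2 CPM (log2 change 0.76, SE 0.12, adjusted p = 0.013, and 0.87 without hypoxia 9). Ero1l, an oxidase of protein folding, rose (0.39 and 0.41), and of the 25 members with whole reads 5 rose. The mitophagy receptor gene Bnip3 did not pass (0.16 and 0.11). Across the 4 strictest fits, 2, 0, 2 and 0 members were called.

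Of 27 glucose entry and glycolysis genes, 7 rose and 1 fell (8 and 1 without hypoxia 9), at a median of 0.21, and 0.26 without hypoxia 9. Pfkfb3, which makes the activator of phosphofructokinase, stood at 79.6, 75.1 and 69.3 CPM in normoxia, 258, 249 and 245 CPM in hypoxia and 354, 378 and 329.9 CPM with T3 (log2 change 0.49, SE 0.06, adjusted p = 0.0063, and 0.48 without hypoxia 9), and hypoxia 9 lay with its group. The glucose transporter genes Slc2a1 (0.48 and 0.53) and Slc2a3 (0.28 and 0.27) and the pyruvate kinase gene Pkm (0.27 and 0.31) rose, and Pdk1, which holds pyruvate back from mitochondria (0.08 and 0.07), and Ldha (0.18 and 0.20) did not pass. With the 4 strictest fits, 2, 1, 1 and 1 genes were higher, against 14 without T3 13. Of 11 oxygen sensor and HIF subunit genes 1 rose, the HIF inhibitor Cited2 (0.34, adjusted p = 0.040, and 0.36, adjusted p = 0.049 without hypoxia 9). A single call in a list of this size lies near the 2.73% of all genes, and none was called in the 4 strictest fits.

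Of 28 genes of the ATF4 arm of the integrated stress response, which slows translation and raises amino acid supply, 8 rose and none fell, and 12 rose without hypoxia 9 (28.6% against 2.73% of all genes, and 42.9% against 3.09%). Atf4 itself stood at 353, 305 and 335 CPM in hypoxia and 507, 450.4 and 450.2 CPM with T3 (log2 change 0.50, SE 0.07, adjusted p = 0.00998, and 0.51 without hypoxia 9), Ppp1r15a, which turns the response off, at 87.8, 74.6 and 93.99 and 155, 146 and 127 CPM (log2 change 0.73, SE 0.10, adjusted p = 0.0094), and Ddit3, the pro-death factor CHOP, rose (0.62 and 0.72). In the 4 strictest fits, 3, 2, 3 and 1 of them were called higher. Of 20 endoplasmic reticulum chaperone and sensor genes none rose with limma (8 had an unadjusted p under 0.05 in either direction, and edgeR called 0 and DESeq2 4 higher), and the sensor gene Atf6 fell (-0.41 and -0.40). Of 20 heat shock genes 4 rose (3 without hypoxia 9), among them Hsph1 (0.37 and 0.40) and Hspa1b (0.74 and 0.70), whose reads cannot be told from those of its near-identical neighbour Hspa1a with certainty. Without hypoxia 8, T3 11 or T3 12 no heat shock gene was called, and 1 was without hypoxia 7.

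Of 15 tested genes of the BCL2 family, which sets the threshold of mitochondrial cell death, 3 rose and 2 fell (2 and 1 without hypoxia 9), and of the 11 with whole reads 3 rose and 1 fell. Bcl2l11, the pro-apoptotic protein BIM, stood at 3.58, 3.93 and 4.07 CPM in normoxia, 7.69, 6.48 and 15.8 CPM in hypoxia 7, 8 and 9, and 19.8, 20.8 and 20.3 CPM with T3 (log2 change 1.05, SE 0.23, adjusted p = 0.032, and without hypoxia 9 1.40, SE 0.11, adjusted p = 0.00050). Hypoxia 9 stood above hypoxia 7 and 8 summed, nearer to the T3 libraries than to its own group. Pmaip1, the pro-apoptotic protein NOXA, stood at 11.1, 11.6 and 12.5 CPM in normoxia, 12.4, 10.6 and 13.2 CPM in hypoxia and 18.8, 19.4 and 16.6 CPM with T3 (log2 change 0.56, SE 0.10, adjusted p = 0.019, and 0.62 without hypoxia 9). Bcl2, the anti-apoptotic founder of the family, fell from 14.4, 14.3 and 13.7 CPM to 8.597, 10.7 and 10.6 CPM (log2 change -0.47, SE 0.10, adjusted p = 0.026, and -0.49 without hypoxia 9). Bbc3, which encodes PUMA, did not pass (0.06 and 0.02). The calls on Bcl2l11, Pmaip1 and Bcl2 were each lost in all 4 strictest fits, with a largest adjusted p of 0.12, 0.086 and 0.11.

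Of 21 p53 targets and growth arrest genes, 8 rose and none fell (9 and none without hypoxia 9), among them the cyclin-dependent kinase inhibitor Cdkn1a (0.31 and 0.32) and Gadd45a (0.62 and 0.64). Without the 2 genes off the read step, Gadd45b and Gadd45g, 6 of 19 rose (7 without hypoxia 9), and in the 4 strictest fits none of these 19 was called. Of 22 NRF2 antioxidant genes 3 rose in both fits (13.6%, against 2.73% and 3.09% of all genes), among them the superoxide dismutase gene Sod1 (0.28 and 0.29). None of them was called in the 4 strictest fits.

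Genes of protein synthesis and respiration were slightly higher. All 83 tested cytosolic ribosomal protein genes had a positive change, against 6275 of all 12923 genes tested. In each fit 20 of the 83 rose (24.1% against 2.73% of all genes), and the median was 0.24, and 0.27 without hypoxia 9. The mean over the 83 genes, relative to hypoxia 7 and 8, was 0.08 in hypoxia 9 and 0.40, 0.28 and 0.14 in T3 11, 12 and 13, so T3 13 lay nearer to hypoxia than to T3 11. Rpl8 stood at 245, 256 and 281 CPM in hypoxia and 344, 328 and 296 CPM with T3 (log2 change 0.31, SE 0.07, adjusted p = 0.031, and 0.36 without hypoxia 9). With equal column sums 9 of the 83 rose, none did in the 4 strictest fits and 68 did without T3 13. Reads of these genes may be shared with their processed pseudogenes. Of 52 translation factor genes 8 rose in each fit, among them the elongation factor genes Eef2 (0.33 and 0.36) and Eef1a1 (0.27 and 0.29). Of 76 nuclear-encoded oxidative phosphorylation genes 8 rose (7 without hypoxia 9 and 3 with equal column sums), with 73 of 76 changes positive and a median of 0.19. Of 76 mitochondrial ribosomal protein genes 1 rose, a share below the 2.73% of all genes. Their changes were also mostly positive, in 61 of the 76, at a smaller median of 0.10. By limma 21 of them had an unadjusted p under 0.05, and edgeR called 1 higher and DESeq2 5. Neither the translation factors nor the respiratory genes held a call in the 4 strictest fits.

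Among the decreases were members of the lists of axon guidance, adhesion and cortical layer genes. Of 19 netrin and Slit pathway genes, 6 fell and none rose (31.6% against 3.75% of all genes), and 8 fell without hypoxia 9 (42.1% against 4.32%). The repulsive netrin receptor gene Unc5c stood at 66.2, 67.6 and 71.2 CPM in normoxia, 26.1, 34.5 and 17.6 CPM in hypoxia and 7.21, 8.68 and 16.1 CPM with T3 (log2 change -1.24, SE 0.26, adjusted p = 0.028, and without hypoxia 9 -1.48, SE 0.25, adjusted p = 0.013). The attractive receptor gene Dcc stood at 37.8, 55.1 and 32.3 and 16.2, 18.4 and 28.8 CPM (log2 change -0.95, SE 0.22, adjusted p = 0.035, and -1.12 without hypoxia 9). For both, hypoxia 9 was the lowest of its group and T3 13 the highest of the T3 libraries, and these 2 values lie close together. Unc5d (-0.82 and -0.98), Robo1 (-0.81 and -0.95), Robo2 (-0.29 and -0.32) and the ligand gene Slit2 (-0.69 and -0.84) fell as well. None of the 19 was called in the 4 strictest fits, although the median stayed between -0.46 and -0.29 on leaving out any library.

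Of 45 semaphorin, plexin and ephrin genes, 7 fell and 1 rose (11 and 2 without hypoxia 9). Sema3a stood at 43.3, 46.5 and 42.9 CPM in normoxia, 24.98, 25.5 and 18.4 CPM in hypoxia and 10.5, 12.4 and 12.9 CPM with T3 (log2 change -0.88, SE 0.12, adjusted p = 0.0084, and without hypoxia 9 -1.02, SE 0.10, adjusted p = 0.0010). Plxnd1, a semaphorin receptor gene, moved the other way, at 723, 668 and 656 CPM in normoxia, 500.3, 513 and 528 CPM in hypoxia and 612, 606 and 624 CPM with T3 (log2 change 0.26, SE 0.05, adjusted p = 0.022, and 0.28 without hypoxia 9). Across the 4 strictest fits, 2, 1, 2 and 1 members of this list were lower, and Plxnd1 was called in none of the 4.

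Of 31 cadherin genes, 11 fell (35.5%, against 3.75% of all genes) and none rose. Without hypoxia 9, 12 fell and none rose. The median was -0.35, and -0.39 without hypoxia 9. Cdh18 stood at 7.06, 8.45 and 5.77 CPM in hypoxia and 1.78, 2.395 and 4.48 CPM with T3 (log2 change -1.11, SE 0.22, adjusted p = 0.023, and -1.23 without hypoxia 9), and the protocadherin genes Pcdh20 (-0.64 and -0.67) and Pcdh19 (-0.54 and -0.65) also fell. Of 45 synaptic adhesion genes, 13 fell and 1 rose (16 and 2 without hypoxia 9). Flrt2 stood at 49.8, 45.97 and 46.2 CPM in hypoxia and 23.8, 29.8 and 31.6 CPM with T3 (log2 change -0.73, SE 0.09, adjusted p = 0.0057, and -0.74 without hypoxia 9), and the teneurin genes Tenm3 (-0.54 and -0.59) and Tenm4 (-0.87 and -1.03) and the neurite regulator Slitrk5 (-0.59 and -0.63) were lower. With the 4 strictest fits, 1, 0, 1 and 0 cadherins and 2, 1, 2 and 1 synaptic adhesion genes were lower.

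Cortical layer transcription factors had 8 of 25 members lower and none higher (11 and none without hypoxia 9), at medians of -0.31 and -0.44. Besides Rorb, the corepressor gene Tle4 of deep-layer neurons (-0.61 and -0.62) and the nuclear factor gene Nfia (-0.81 and -0.90) fell. In the 4 strictest fits, 2, 1, 2 and 1 of them were lower, Rorb each time.

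Of 40 glutamate receptor and postsynaptic scaffold genes, 8 fell and none rose by limma (11 and none without hypoxia 9), 22 having an unadjusted p under 0.05, while edgeR called 7 lower and none higher and DESeq2 13 lower and 3 higher. Grin3a, an NMDA receptor subunit of immature synapses, stood at 19.8, 16.4 and 12.3 CPM in hypoxia and 7.496, 9.08 and 8.34 CPM with T3 (log2 change -0.86, SE 0.18, adjusted p = 0.025, and -1.04 without hypoxia 9), and the metabotropic receptor gene Grm8 (-0.85 and -0.92) and the scaffold gene Dlgap1 (-0.73 and -0.80) fell. Of 53 voltage-gated and potassium channel genes 10 fell and 1 rose, among the lower ones the calcium channel subunit gene Cacna2d1 (-0.57 and -0.65). Of 30 GABA receptor and interneuron genes 5 fell (16.7%, against 3.75% of all genes) and 1 rose (3.33%, against 2.73%). Those lower included Gabrb2 (-0.62 and -0.75) and the calcium buffer gene Calb1 (-0.42 and -0.45), and Calb2, its paralog, rose (0.59 and 0.59). No glutamate receptor or channel gene was called in the 4 strictest fits. Of 35 synaptic vesicle and release genes none was called with all libraries, against 6.48% of all genes, while 12 had an unadjusted p under 0.05, edgeR called 0 of them and DESeq2 3 higher and 4 lower. Of them 3 fell without hypoxia 9.

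**Figure D4:**
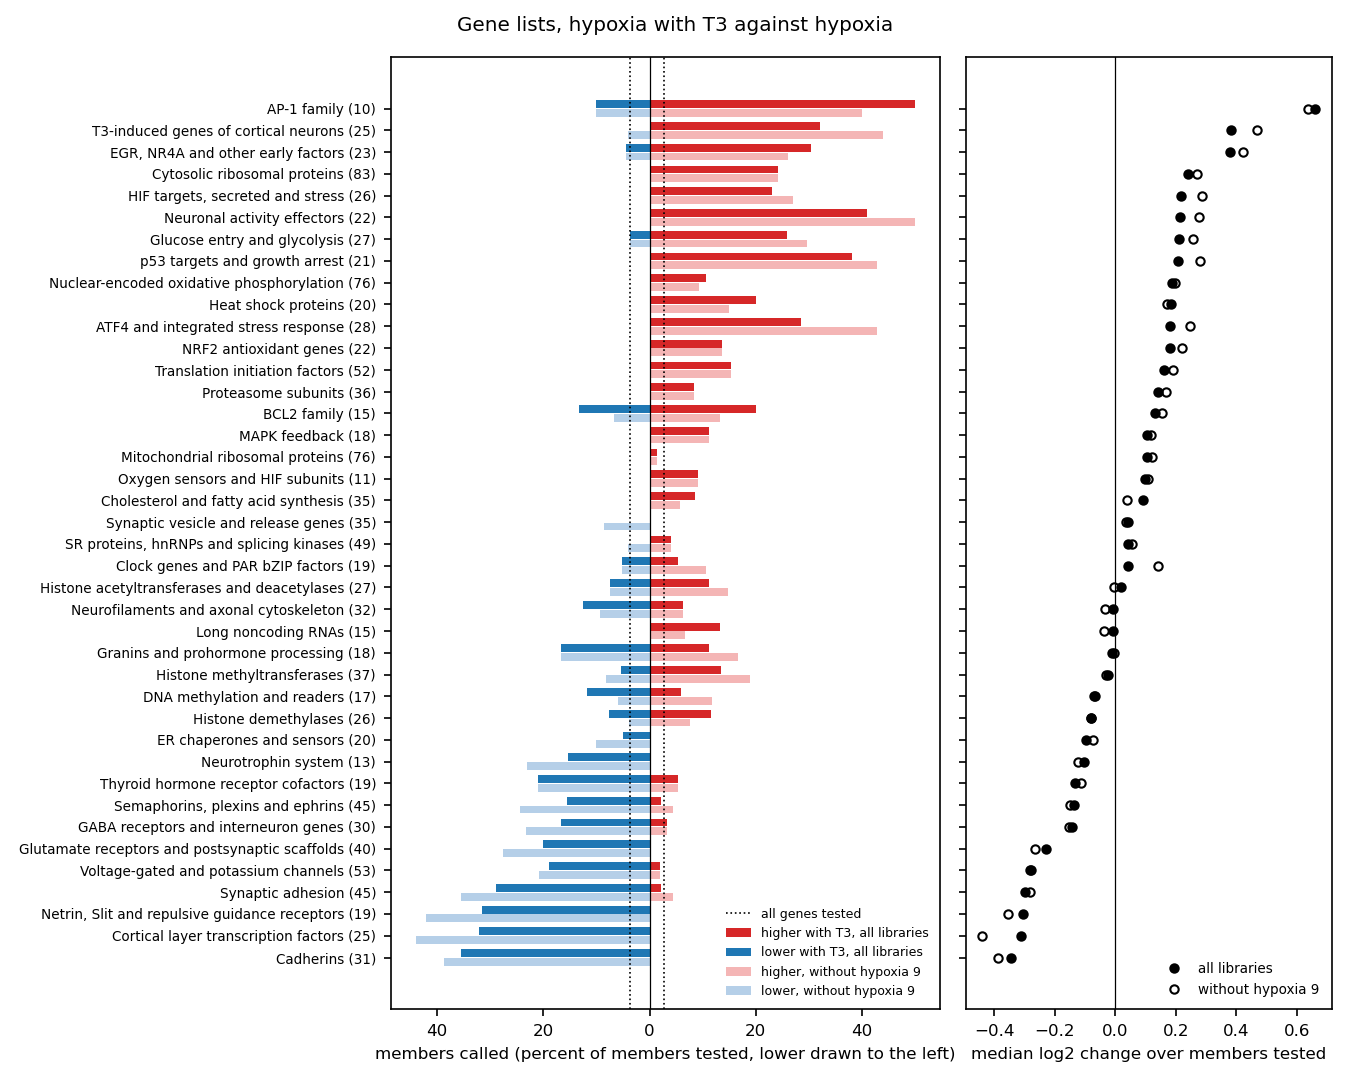
Left, percent of the tested members of each gene list called higher (red, right) or lower (blue, left) with T3, with all libraries (dark) and without hypoxia 9 (pale); dotted lines mark the shares of all genes, 2.73% and 3.75%, and the number of members tested is in brackets. Right, median log2 change over tested members; the lists run from cadherins at -0.35 to the AP-1 family at 0.66.

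Of 32 neurofilament and axonal cytoskeleton genes, 2 rose (6.25%, against 2.73% of all genes) and 4 fell (12.5%, against 3.75%). Without hypoxia 9, 2 rose and 3 fell. The median log2 change was -0.006, and -0.03 without hypoxia 9, so the genes named here do not stand for the list. Nefl, the light neurofilament chain, rose with Nefm, from 181, 175 and 199.8 CPM in hypoxia to 254, 257 and 251 CPM with T3 (log2 change 0.45, SE 0.06, adjusted p = 0.0065, and 0.51 without hypoxia 9), while the heavy chain gene Nefh did not pass (0.05 and 0.14). The neuronal tubulin gene Tubb3 fell, from 922, 1357 and 1033 CPM to 563, 701 and 838 CPM (log2 change -0.66, SE 0.15, adjusted p = 0.034, and -0.69 without hypoxia 9), and Tubb2a (-0.54 and -0.55) and Tubb4a (-0.43 and -0.45) fell beside it, reads of tubulin paralogs being partly shared. The calls on the 3 tubulin genes were lost without hypoxia 8, T3 11 or T3 12, and those on Tubb3 and Tubb4a also without hypoxia 7. Among secretory granule genes, Chga (0.42 and 0.45) and Chgb (0.32 and 0.37) rose, and the neuropeptide gene Adcyap1 (-0.65 and -0.65) and the convertase gene Pcsk2 (-0.48 and -0.56) fell. Adcyap1 was tight within groups, at 10.9, 10.7 and 10.8 CPM in hypoxia and 6.998, 6.49 and 6.15 CPM with T3.

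Of the remaining genes with the largest changes, those higher were Mknk1, a kinase of the cap-binding factor (0.84 and 1.01), the tight junction gene Cldn12 (0.86 and 1.06), Dmrtb1 (1.02 and 1.298) and the class I histocompatibility gene H2-K1 (0.84 and 0.98), whose reads may be shared with its relatives. Those lower were Nwd2 (-1.05 and -1.23), Nckap5 (-1.04 and -1.13), the cyclic GMP kinase gene Prkg1 (-0.95 and -1.06) and the ciliary factor gene Rfx3 (-0.90 and -1.06). Mknk1 stood at 11.6, 15.04 and 19.4 CPM in hypoxia and 27.4, 26.2 and 29.6 CPM with T3, and Cldn12 at 33.2, 27.6 and 46.4 and 68.5, 64.9 and 59.9 CPM, and for both hypoxia 9 was the hypoxia library nearest to T3. Nwd2 stood at 186, 231 and 144 CPM in hypoxia and 71.5, 86.1 and 111 CPM with T3.

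The title of the series names histone modification, and 20 of the 35 genes whose values depart from whole reads belong to the 3 histone-modifying lists. Some of these values repeat between genes. Kmt2a and Kmt2d have the same values in hypoxia 7 (101.839), hypoxia 9 (109.024), T3 11 (145.099) and T3 12 (143.896). Kmt2a, Kmt2c and Kdm5b all have 5.57036 in hypoxia 8. Counts as deposited on these lists therefore do not all rest on separate measurements. Of 37 histone methyltransferase genes 5 rose and 2 fell as deposited, and of the 27 with whole reads 1 rose and 1 fell (3 and 2 without hypoxia 9). Of 26 demethylase genes 3 rose and 2 fell, and of the 22 with whole reads 1 rose and 1 fell (none without hypoxia 9). Single calls in lists of this size lie near the 2.73% and 3.75% of all genes. Of 27 acetyltransferase and deacetylase genes 3 rose and 2 fell, and of the 21 with whole reads limma and edgeR called none and DESeq2 1 higher and 1 lower (1 higher by limma without hypoxia 9). Hdac4 stood as deposited at 23.8, 24.3 and 24.9 CPM in hypoxia and 11.5, 10.4 and 11.8 CPM with T3, and its 3 T3 values are not whole reads, so no test on whole reads was possible. Kdm6b, the H3K27 demethylase, stood at 189, 176 and 187 and 269, 242 and 252 CPM with 3 values off the step. Among genes with whole reads, its relative Kdm6a fell (-0.59, adjusted p = 0.034), and the call was lost without hypoxia 9 (-0.56, adjusted p = 0.055).

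The direction of change followed the length of the gene. Spans, from start to end of the gene model in GRCm38 (RefSeq), were matched for 12848 genes, with a median of 24.9 kb. The median span was 10.1 kb among the genes higher with T3 and 152 kb among those lower, and 63.0% of the lower genes spanned at least 100 kb, against 2.27% of the higher genes and 15.5% of all. By span, the share called lower was 1.06% under 10 kb, 0.83% from 10 to 30 kb, 3.07% from 30 to 100 kb, 12.1% from 100 to 300 kb and 25.1% from 300 kb upward (1.19%, 0.93%, 3.23%, 14.6% and 29.4% without hypoxia 9). The share called higher was 5.58%, 3.25%, 1.01%, 0.54% and 0% (5.90%, 3.74%, 1.32%, 0.94% and 0% without hypoxia 9).

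The median log2 change over all genes of a bin went from 0.08 under 10 kb through 0.05, -0.05 and -0.20 to -0.35 from 300 kb upward, and without hypoxia 9 from 0.09 to -0.40. On leaving out any library the longest bin stayed between -0.44 and -0.29 and the shortest between 0.06 and 0.10. For hypoxia against normoxia, which uses the same hypoxia libraries, the medians were 0.12, 0.06, -0.07, -0.27 and -0.61. Genes of at least 300 kb held 4.30% to 4.49% of the summed CPM in normoxia, 3.13%, 3.47% and 3.01% in hypoxia 7, 8 and 9, and 2.34%, 2.49% and 2.90% in T3 11, 12 and 13. Genes under 10 kb held 19.4% to 19.8%, then 21.8%, 22.1% and 22.6%, then 23.9%, 23.7% and 22.9%. On both measures hypoxia 9 was the hypoxia library nearest to T3 and T3 13 the T3 library nearest to hypoxia.

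**Figure D5:**
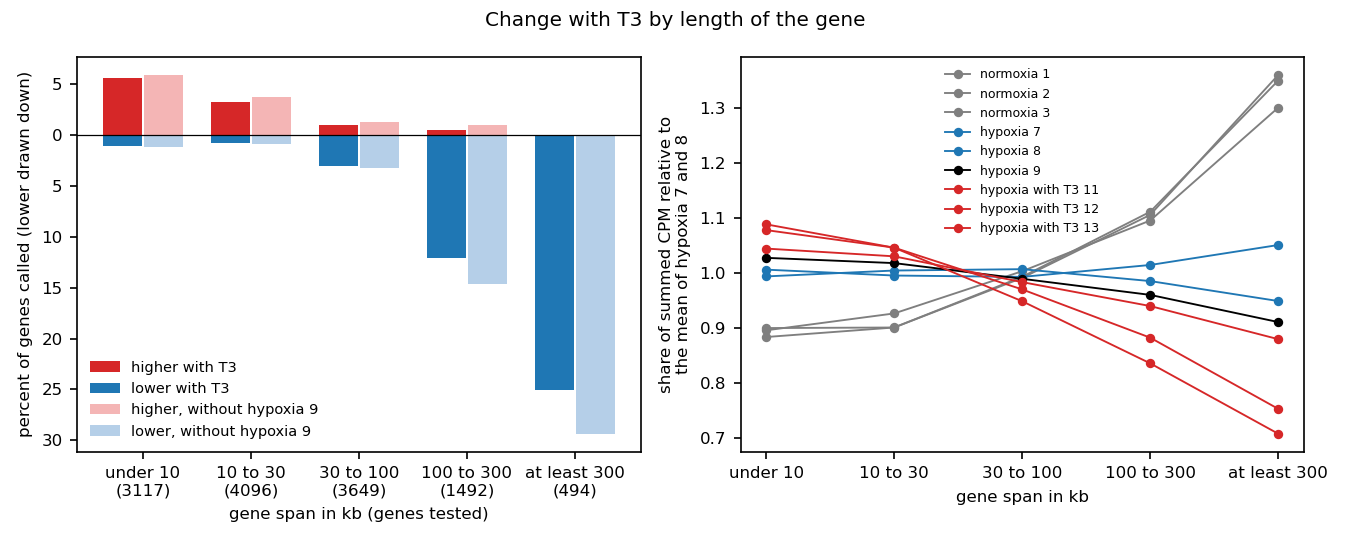
Left, percent of genes called higher (up) or lower (down) with T3 by gene span, with all libraries (dark) and without hypoxia 9 (pale). Right, share of each library's summed CPM held by genes of each span, divided by the mean share of hypoxia 7 and 8; in genes of at least 300 kb the normoxia libraries lie highest and T3 11 and 12 lowest.

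Several lists with decreases hold many long genes, so their members are set here beside other genes of the same span. Of all 1986 genes of at least 100 kb, 15.4% were lower. Among members that long, the share lower was 6 of 14 netrin and Slit genes (42.9%), 6 of 13 layer transcription factors (46.2%), 9 of 27 synaptic adhesion genes (33.3%), 8 of 26 glutamate receptor genes (30.8%), 7 of 23 cadherins (30.4%) and 8 of 33 channel genes (24.2%). It was 0 of 13 synaptic vesicle genes and 0 of 8 cytoskeletal genes, and with so few members a count of 0 is not far from 15.4%. All shares in this paragraph are from the fit with all libraries and were not computed without hypoxia 9. Several genes that fell are short: Pcdh20 spans 6.65 kb, Slitrk5 8.03 kb, Adcyap1 8.297 kb, Klf6 8.905 kb and Tubb3 10.5 kb. Pak1, which rose, spans 124 kb, and Pfkfb3 82.6 kb. Of the 7213 genes under 30 kb, 4.26% were higher, and among members that short the share was 8 of 15 T3-induced genes (53.3%), 8 of 20 ATF4 pathway genes (40.0%), 8 of 19 p53 targets (42.1%), 20 of 83 ribosomal protein genes (24.1%) and 1 of 70 mitochondrial ribosomal protein genes (1.43%). How far span, rather than function, goes with each list was not tested.

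Promoters of the tested genes were searched for short motifs in RefSeq's GRCm38.p6 table, from 250 bases before to 50 after each start, on both strands. The cyclic AMP response element TGACGTCA, read by CREB and ATF factors, lay in 18 of 359 promoters of higher genes (5.01%, and 6.42% of those higher without hypoxia 9), in 3.12% of 13126 promoters of all tested genes and in 1.35% of those of lower genes. The TATA box TATAAA lay in 12.3%, 6.94% and 9.27%, and ACGTG, the core that HIF factors read, in 30.6%, 25.2% and 17.8%. The AP-1 site TGACTCA lay in 3.06%, 3.37% and 3.28%. The single nuclear receptor motif AGGTCA lay in 13.1%, 11.98% and 9.27%, but in 11.4% of promoters of genes higher without hypoxia 9, below all tested genes, and an exact direct repeat of it with 4 bases between, the classical arrangement bound by T3 receptors, in none of the 13126 windows. Genes with several starts give several windows, which can overlap.

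Of the genes with whole reads called higher in both fits, 16 were listed with the cyclic AMP response element in such a window. A chromosome was left out of this listing, so genes on it could not be among the 16. The windows of the 8 of these 16 genes with the largest changes are shown, among them members of the early gene lists such as Arl4d and Maff. Other early genes that rose, including Jun, Fos, Junb, Cyr61, Sertad1 and Ier5l, hold no such element in their windows. The element is in capitals, 5′ to 3′ on the gene's strand, with 16 bases on each side.
Arl4d (chr11:101665499-101665538, plus strand, element 26 bases before the start): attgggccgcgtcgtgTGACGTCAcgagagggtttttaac
Epha2 (chr4:141301172-141301211, plus strand, element 33 bases before the start): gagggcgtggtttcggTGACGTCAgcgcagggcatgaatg
Maff (chr15:79347475-79347514, plus strand, element 29 bases before the start): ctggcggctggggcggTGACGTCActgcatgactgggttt
Ppp1r15a (chr7:45526257-45526296, minus strand, element 12 bases before the start): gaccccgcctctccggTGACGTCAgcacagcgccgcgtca
Errfi1 (chr4:150855003-150855042, plus strand, element 51 bases before the start): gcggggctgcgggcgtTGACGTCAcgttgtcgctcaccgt
Dusp1 (chr17:26508592-26508631, minus strand, element 143 bases before the start): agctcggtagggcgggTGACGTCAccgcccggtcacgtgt
Pak1 (chr7:97788291-97788330, plus strand, element 234 bases before the start): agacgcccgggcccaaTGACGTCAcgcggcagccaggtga
Pak1 (chr7:97788343-97788382, plus strand, element 182 bases before the start): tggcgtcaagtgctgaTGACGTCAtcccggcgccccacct
Plk2 (chr13:110394966-110395005, plus strand, element 62 bases before the start): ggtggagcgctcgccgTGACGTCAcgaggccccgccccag

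Pak1 holds the element at 2 places, and Pak1 and Arl4d are the only 2 of these 8 genes that kept their call whichever library was left out. Epha2, an ephrin receptor gene, was low in hypoxia, at 0.968 ± 0.598 CPM (mean ± SD, n = 3), and stood at 2.37 ± 0.136 CPM with T3 (log2 change 0.82, and 1.05 without hypoxia 9). A match describes letters in a window and shows neither a bound factor nor a cause.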

How the data were processed

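The authors deposited 1 table for the series, TMM-normalised CPM values per gene symbol for 9 poly-A mRNA libraries. Per the submitters' processing notes, the tools were Bowtie2 2.1.0, RSEM 1.2.15 and edgeR, with mouse build mm10. The version of edgeR and any counting by strand are not given in the sources used here. The deposited CPM values are normalized signal and not counts, but 99.8878% to 99.9958% of the values in a library were whole multiples of the value of 1 read within 0.01 read, so whole reads were recovered for the count tools. Values in 35 rows departed from that step. A column with 4 values and no library name was not used.

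Genes with a value above 1 in at least 3 libraries were tested (12923) on log2(value + 1), with limma 3.58.1 in R 4.3.3, trend in the variance, all 9 libraries in 1 fit (6 residual degrees of freedom, 5 without hypoxia 9) and Benjamini-Hochberg adjustment over all genes at 0.05. All p-values are two-sided, and fold changes on this scale understate those of low genes. Fits were repeated without hypoxia 9, with each other library left out, with other pseudocounts, filters and scalings, and, on the recovered reads, with DESeq2 1.42.0 and with the quasi-likelihood test of edgeR 4.0.16, as set out in the closing section. The scripts were tested on simulated data.

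Genes were named by rule: the 12 largest increases and 12 largest decreases among genes called in both fits, with a mean of at least 5 in the higher group, no overlap and whole reads, up to 4 members of each of 49 lists by adjusted p, and 7 label checks. Other genes were chosen after their values were seen. The members and lists were chosen with earlier results of these data known. Counts of a list are descriptions and no test of it. Gene spans and promoters came from RefSeq tables for GRCm38.p6, matched by symbol for 12848 and 10202 of the tested genes.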

Additional observations from a re-analysis of the deposited data

How the results depend on the processing

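No paired analysis was possible because the columns of the table carry library numbers that differ between groups and do not match the replicate numbers in the labels. The count of 838 genes was 172 with no filter on low values, 234 with no trend in the variance, 275 with only the 6 libraries compared and 1728 with DESeq2, and from 31 (without T3 12) to 1817 (without T3 13) on leaving out each library. The 17 genes changed at least 2-fold were 41 with a pseudocount of 0.1, 6 with a pseudocount of 5, 44 with edgeR, 33 with DESeq2, 76 with edgeR without hypoxia 9 (added after seeing the data), and 11 each with the off-step rows left out, no filter, no trend or only 6 libraries, and from 6 to 41 on leaving out each library. The filter and the pseudocount change which genes are tested and how low values are scaled; for the other settings the cause was not tested. Of 1054 values for 48 named genes under 23 other settings, 944 stayed on the same side of the threshold, 105 lost the call, 5 gained it and 0 changed sign. The 48 include the 26 genes chosen because they kept their call whichever library was left out. They also include the largest changes, chosen among genes called with and without hypoxia 9. Many of these outcomes were therefore fixed by the choice of genes and do not measure how stable the 838 calls are. With 3 libraries a group and hypoxia 7 at 17182338 reads, small changes of low genes are the least certain.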
